A study of Mus musculus with 4 samples.

Results

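The proteasome is the protease that degrades proteins tagged with ubiquitin. Its core, the 20S particle, is a barrel of 4 rings in which alpha subunits form the outer rings and the gate, and beta subunits form the inner rings with the active sites. The regulatory 19S particle caps the barrel with a ring of ATPases that unfolds substrates and with non-ATPase subunits that bind and remove ubiquitin. Progenitor cells and maturing red cells both depend on the proteasome to turn over cell cycle regulators and surplus proteins. The genes described here are the 38 whose symbols begin with Psma, Psmb, Psmc or Psmd and a digit, without Psmb8 and Psmb9, among 31053 genes in the files. They fall into 7 genes of the 20S alpha ring, 8 of the 20S beta ring, 6 ATPases and 11 non-ATPase subunits of the 19S particle, 4 genes whose products are not in the mature particle and 2 that other tissues are known to use. Psmb8, Psmb9 and Psmb10 encode the inducible catalytic subunits of the immunoproteasome, of which the name rule keeps Psmb10. The 4 genes outside the particle are the assembly chaperones Psmd5, Psmd9 and Psmd10, and Psmc3ip, a recombination factor that the rule takes by its name alone. Psma8 is known as a subunit of the testis and Psmb11 as one of the thymic cortex.

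RNA of single cells was sequenced with 10x Chromium droplets (version 3 chemistry) in 4 mouse bone marrow libraries, 1 for each group, where a unique molecular identifier (UMI) marks each captured RNA molecule. KLS cells, which are lineage-negative, Kit-positive and Sca-1-positive stem and progenitor cells, were taken at an age of 8 to 12 weeks from 4 mice, a number given without saying whether per genotype. The stromal sort, labelled MSC, took cells of mice 6 to 8 weeks old that carried Sca-1 and CD140a but neither CD45 nor CD71, with Ter119 absent or low. The genotype of the STAT5 KO libraries is Vav1-Cre/+STAT5abfl/fl and that of the controls Vav1-Cre/+STAT5ab+/+, so all 4 groups carry the Cre transgene, which Vav1 sequences drive in blood cells. No test could be made with single libraries, the intervals given are 95% intervals of counting error alone, and mice, preparation and genotype cannot be told apart.

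The labels were checked first. Stat5a stood at 68.5 counts per 1000000 UMIs (CPM) in KLS control and 6.74 in KLS STAT5 KO, and Stat5b at 60.8 and 4.49 CPM. Both were thus low, though not at 0, in the KLS library labelled STAT5 KO. In stromal cells Stat5a stood at 44.5 CPM in control and 60.9 in STAT5 KO and Stat5b at 55.3 and 49.8 CPM. KLS cells had Ptprc, which encodes CD45, at 153 and 154 CPM and no UMI of Pdgfra, which encodes CD140a, while the MSC libraries had Pdgfra at 287 and 236 CPM and Ptprc at 3.99 and 5.84 CPM (7 UMIs each) over all kept cells. In the stromal gate, whose marker lists hold both genes, Ptprc had no UMI and Pdgfra stood at 320 and 261 CPM. Between 200 and 393 barcodes of a library were also present in another one, and cells whose barcode had more UMIs elsewhere were left out. With those cells kept, the KLS and stromal log2 ratios between genotypes given further on were 0.15 and -0.23. The KLS libraries kept 3085 control and 6726 STAT5 KO cells, with median depths of 15136 and 10085 UMIs. The stromal gate kept 428 control and 267 STAT5 KO cells, with medians of 3551.5 and 3364 UMIs.

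All 38 genes were found in GENCODE M21 (GRCm38), where 15 of them overlap a gene on the opposite strand. RefSeq held promoter windows of 300 bases (250 before and 50 after the gene's start, GRCm38.p6) for 31 of the 38 genes, 33 windows in all. Proteasome genes are known targets of the factors NRF1 (gene Nfe2l1) and NRF2 (gene Nfe2l2), which bind antioxidant response elements, and CCAAT is the site of the factor NF-Y. Both strands were searched for TGACNNNGC, TGAGNNNGC and CCAAT. TGACNNNGC was found in 5 of the 33 windows (15.2%), against 12.4% of 32851 RefSeq promoter windows, and TGAGNNNGC in 13 (39.4%), against 17.6%. Either element was in 16 windows (48.5%, against 27.8%), and CCAAT in 13 (39.4%, against 37.4%). The most matches in 1 window were 3, in 6 genes (Psma3, Psma6, Psmb3, Psmd10, Psmd14 and Psmd4). The first 3 of these by symbol are shown as examples, with the matches in capitals. The last 50 bases of each window run from the gene's start onward. Psma3 lies at chr12:70974373-70974672, Psma6 at chr12:55383972-55384271 and Psmb3 at chr11:97703184-97703483, all on the plus strand.
Psma3: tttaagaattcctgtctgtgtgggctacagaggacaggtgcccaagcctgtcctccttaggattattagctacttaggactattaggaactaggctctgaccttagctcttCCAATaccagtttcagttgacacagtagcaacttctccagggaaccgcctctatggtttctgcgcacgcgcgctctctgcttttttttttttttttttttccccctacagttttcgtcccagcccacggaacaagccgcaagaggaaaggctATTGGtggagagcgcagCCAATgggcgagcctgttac
Psma6: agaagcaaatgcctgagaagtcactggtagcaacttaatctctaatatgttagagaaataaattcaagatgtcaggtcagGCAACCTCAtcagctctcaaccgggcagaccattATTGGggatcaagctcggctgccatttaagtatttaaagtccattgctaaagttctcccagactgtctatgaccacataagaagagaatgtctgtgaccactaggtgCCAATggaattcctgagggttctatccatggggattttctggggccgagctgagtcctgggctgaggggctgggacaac
Psmb3: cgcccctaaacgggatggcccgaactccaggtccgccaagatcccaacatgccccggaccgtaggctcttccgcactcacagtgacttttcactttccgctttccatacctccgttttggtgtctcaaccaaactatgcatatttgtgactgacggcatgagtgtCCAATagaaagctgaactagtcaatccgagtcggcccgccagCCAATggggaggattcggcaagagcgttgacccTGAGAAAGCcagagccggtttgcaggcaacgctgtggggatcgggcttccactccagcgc
In Psma3 the 3 capital runs are CCAAT, the second of them on the minus strand, where it reads ATTGG. The printed window of Psma6 holds TGAGNNNGC on the minus strand, CCAAT on the minus strand and CCAAT on the plus strand, in that order. Psma6 also has another window, not printed, with 1 match (TGAGNNNGC). Psmb3 holds CCAAT at 85 and 43 bases before the start and TGAGNNNGC from 10 bases before it, all on the plus strand. A match describes letters in the window and says nothing of binding.

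In KLS cells the proteasome genes together were slightly higher in the STAT5 KO library. Their summed level was 5373 CPM (5353 to 5393) in KLS control and 5944 CPM (5927 to 5961) in KLS STAT5 KO, a log2 ratio of 0.15 (0.14 to 0.15), or 1.11-fold. Of 37 members with enough UMIs, 31 lay above 0 and 6 below, with a median log2 ratio of 0.15 against -0.01 over all 12074 genes tested. The counting interval lay above 0 for 28 members, below 0 for 1 and included 0 for 8. A gene was counted as at least 1.2-fold higher or lower by its log2 ratio with a pseudocount of 1 CPM, given at least 100 UMIs over the pools compared (50 where stromal cells were one of them). By this count 6 members were higher, against 9.76% of all genes, and 0 lower, against 14.2%. The minimum counts both pools together, so in any comparison a gene can pass through the larger pool alone.

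The beta ring had the highest ratio of the 4 groups. Its 8 genes summed to 1519 CPM in control and 1783 in STAT5 KO, a log2 ratio of 0.23 (0.22 to 0.24), and each of the 8 was above 0. The 7 alpha genes summed to a log2 ratio of 0.07 (0.06 to 0.08), the 6 ATPases to 0.14 (0.12 to 0.16) and the 11 non-ATPase genes, all above 0, to 0.16 (0.14 to 0.17). The 4 genes outside the particle stood at -0.01 (-0.05 to 0.04). Thus the core's inner ring and the regulatory cap were further from 0 than the core's outer ring.

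Among the catalytic beta subunits, Psmb5, which carries the chymotrypsin-like activity, stood at 191 CPM in control and 232 in STAT5 KO, a log2 ratio of 0.28 (0.25 to 0.32). Psmb7, with the trypsin-like activity, stood at 106 and 131 CPM (0.31, 0.26 to 0.35), and Psmb6, with the caspase-like activity, at 200 and 230 CPM (0.20). All 3 constitutive catalytic genes were higher in STAT5 KO, and the inducible Psmb10 was too, at 120 and 144 CPM (0.25). Psmb3, a structural beta subunit, stood at 209 and 256 CPM (0.29) and Psmb1 at 281 and 315 CPM (0.16).

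Alpha subunits were split. Psma1 stood at 233 CPM in control and 226 in STAT5 KO (-0.04), the only member whose interval lay below 0. Psma2 stood at 245 and 246 CPM (0.00) and Psma6 at 197 and 197 CPM. Psma7 stood at 342 and 380 CPM (0.15) and Psma3 at 301 and 325 CPM (0.11). The testis subunit Psma8 was rare, at 4.61 and 7.68 CPM, and had the highest log2 ratio of all members, 0.74 (0.52 to 0.96).

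In the 19S particle, the ATPase Psmc5 stood at 99.9 CPM in control and 124 in STAT5 KO (0.31, 0.26 to 0.36), whereas the ATPase Psmc6 stood at 123 and 122 CPM (-0.01). Psmc3 stood at 136 and 160 CPM (0.23) and Psmc1 at 110 and 112 CPM (0.04). The ATPase ring was therefore uneven. Psmd4, a ubiquitin receptor, stood at 116 and 141 CPM (0.28), Psmd7, a partner of the deubiquitinase, at 182 and 219 CPM (0.26), and Psmd14, the deubiquitinase itself, at 101 and 112 CPM (0.15). Psmd2, a large scaffold subunit, stood at 131 and 138 CPM (0.08). The chaperones lay at the low end, with Psmd10 at 33.3 and 31.7 CPM (-0.07, -0.16 to 0.02), Psmd5 at 50.2 and 48.0 (-0.06) and Psmd9 at 45.1 and 44.1 (-0.03), and Psmc3ip stood at 28.4 and 32.6 CPM (0.20). Psmb11 had 1 UMI in KLS STAT5 KO and none in KLS control, which allows up to 0.0721 CPM there.

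**Figure D1:**
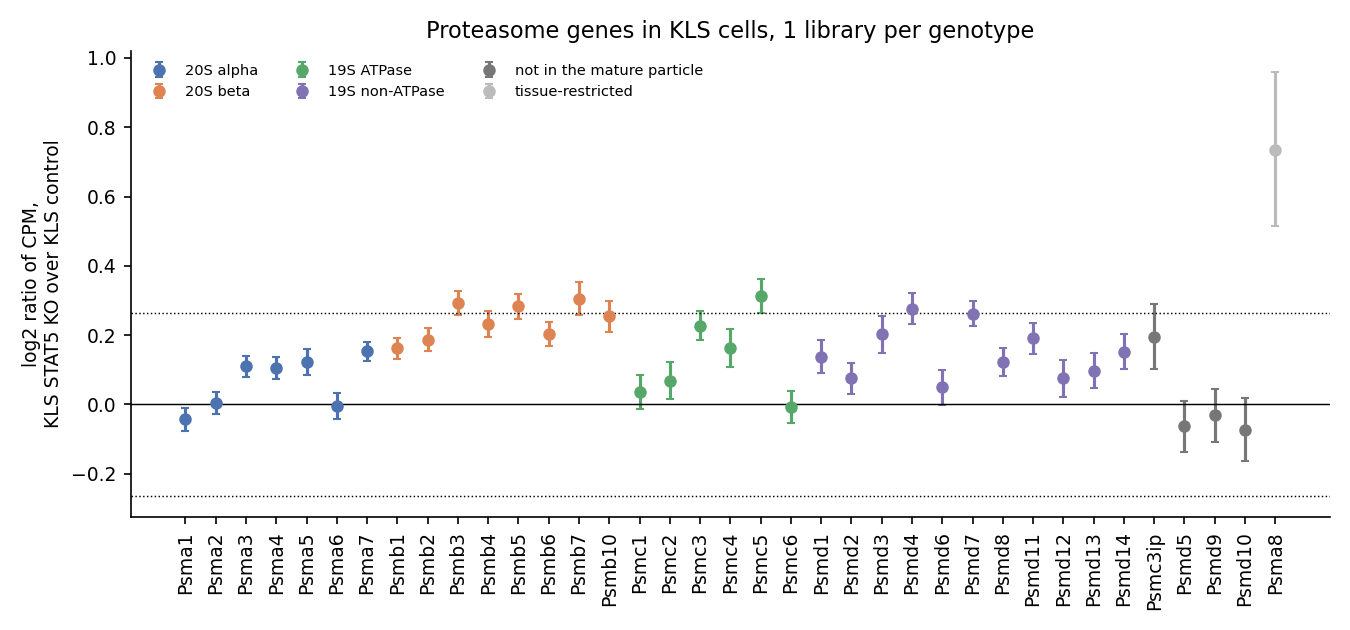
Log2 ratio of CPM, KLS STAT5 KO over KLS control, for 37 genes (Psmb11 is left out), coloured by their place in the particle. Points are pooled ratios, bars 95% counting intervals, and dotted lines 1.2-fold. The 8 beta genes all lie above 0, and Psma8 is highest at 0.74.

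Among genes that work with the proteasome, 3 of the 5 assembly factors were at least 1.2-fold higher in KLS STAT5 KO, namely Psmg1 (0.38), Psmg4 (0.32) and Psmg3 (0.27), against 9.76% of all genes. So were 2 of the 5 genes of activators and their inhibitor, Psme3 (0.33) and Psme4 (0.31), while the inhibitor Psmf1 stood at -0.10. Of the 3 regulators, Nfe2l1 stood at 39.9 CPM in control and 50.5 in STAT5 KO (0.34) and Ddi2, the protease that activates its product, at 0.31, but Nfe2l2 at -0.04. The immunoproteasome genes left out by the name rule stood near the beta ring, Psmb8 at 438 and 521 CPM (0.25) and Psmb9 at 199 and 225 CPM (0.18). Other complexes, of fewer genes, served for comparison. None of 7 genes of the chaperonin, a folding machine, passed 1.2-fold (sum 0.09, 0.08 to 0.10), and none of 10 genes of the COP9 signalosome, which resembles the 19S lid, did so either (sum -0.03, -0.05 to -0.01), where 9.76% of all genes were higher and 14.2% lower by that fold.

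The 2 KLS libraries differed in their cells as well. Cells were placed in gates by lineage marker UMIs, which use no proteasome gene, and in low, middle and high cycling tiers of like size by the summed share of S and G2/M genes, set over both libraries together. The low tier held 1405 of 3085 control cells and 1866 of 6726 STAT5 KO cells, and myeloid-gated cells numbered 196 of 3085 and 1055 of 6726. Weighted to the control shares of gate by tier, the log2 ratio of the summed level was 0.09 rather than 0.15. Between cells of 8000 to 16000 UMIs it was 0.21. Within gates it was 0.05 (0.02 to 0.08) in the stem triad gate, 0.09 (0.08 to 0.10) in the multipotent gate, 0.13 (0.12 to 0.14) in the lymphoid, 0.11 (0.09 to 0.13) in the myeloid, 0.08 (0.05 to 0.11) in the megakaryocyte, 0.17 (0.15 to 0.19) in the several-lineage and -0.03 (-0.06 to 0.01) in the erythroid gate. The erythroid gate was thus the 1 gate of 7 whose interval included 0.

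Within gates the same division of the particle was measured. Beta genes summed to a log2 ratio of 0.14 in the stem triad gate, 0.19 in the multipotent, 0.21 in the lymphoid, 0.20 in the myeloid, 0.14 in the megakaryocyte, 0.26 in the several-lineage and 0.07 in the erythroid gate. Alpha genes gave -0.02, 0.01, 0.06, 0.01, 0.02, 0.11 and -0.03 in the same order, each below the beta value of its gate. Of 36 members tested in all 7 gates, 11 were above 0 in each: the beta genes Psmb3, Psmb4, Psmb7 and Psmb10, the alpha gene Psma7, the ATPases Psmc3 and Psmc5, and Psmd3, Psmd4, Psmd7 and Psmd8 of the cap. Psma1 was the 1 member below 0 in every gate, between -0.17 and -0.06. Crossing 7 gates with 3 tiers gave 21 pools, and the summed level was higher in STAT5 KO in 19 of them. Among these, counting intervals overlapped in the low and high tiers of the erythroid and megakaryocyte gates and the low tier of the myeloid gate. The exceptions were erythroid cells of the middle tier and stem triad cells of the low tier. The former stood at 8334 CPM (8128 to 8543) in control and 7725 (7585 to 7866) in STAT5 KO. The latter stood at 4546 CPM (4458 to 4634) and 4305 (4185 to 4427).

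The summed level differed between gates in a like order in both libraries. Stem triad cells (Hlf, Mecom and Procr each detected, 356 control and 265 STAT5 KO cells) stood at 4887 CPM in control and 5052 in STAT5 KO. Multipotent cells, which met no lineage gate and not the triad (1177 and 2374 cells), stood at 5296 and 5644 CPM, and lymphoid cells (Dntt, 1013 and 2074 cells) at 5196 and 5697 CPM. These 3 were the lowest gates of each library. Megakaryocyte cells (Pf4, 147 and 241 cells) stood at 5576 and 5906 CPM and cells of several lineages (153 and 598 cells) at 5554 and 6242 CPM. Myeloid cells (granule protease genes, 196 and 1055 cells) stood at 6072 and 6575 CPM, and erythroid cells (Klf1 and Gata1, 43 and 119 cells) at 7551 and 7416 CPM. The erythroid gate was highest and the myeloid gate next in each library, while the megakaryocyte and several-lineage gates of the control lay within each other's counting error.

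**Figure D2:**
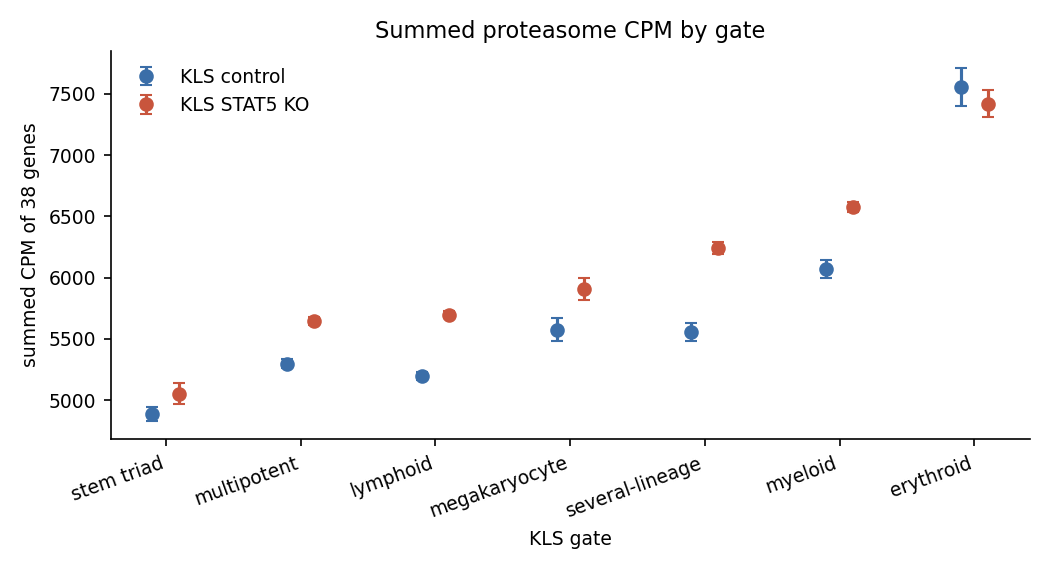
Summed CPM of the 38 genes by KLS gate. Points are pooled cells of 1 library (blue control, red STAT5 KO) and bars 95% counting intervals. Erythroid cells stand at 7551 and 7416 CPM, above every other gate.

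Depth differed between gates too: median UMIs per cell were 12040 and 9047 in the stem triad gate (control, STAT5 KO), 11413 and 7740 in the multipotent gate, 21692.5 and 12442 in the myeloid gate and 24412 and 17655 in the erythroid gate. Among cells of 8000 to 16000 UMIs, the log2 ratio of the erythroid to the multipotent gate was 0.17 in control (10 erythroid cells) and -0.01 in STAT5 KO (39 cells), against 0.51 (0.48 to 0.54) and 0.39 (0.37 to 0.42) over all cells. The corresponding myeloid ratio was 0.0094 and 0.11, against 0.20 and 0.22. The stem triad ratio was -0.12 and -0.19 at that depth, against -0.12 and -0.16. Weighting the cells to the cycling tiers of the multipotent gate left the erythroid ratio at 0.34 and 0.27.

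Erythroid-gated cells had nearly every subunit higher. At least 1.2-fold higher than in the multipotent gate were 31 of 36 members in control, against 24.9% of all genes, and 28 of 37 in STAT5 KO, against 22.9%, with 26 members common to both libraries. The members' medians were 0.55 and 0.39, while those of all genes were -0.16 and -0.15. TMM factors, which centre the bulk of genes, moved the latter to -0.05 and -0.03. The erythroid pools hold 43 and 119 cells, against 1177 and 2374 multipotent ones. A gene could thus pass the minimum on multipotent cells alone at a lower level than on erythroid cells alone. The shares and medians of all genes rest on that set. Erythroid marker genes, which include the gate's own Klf1, summed to 2904 CPM in control and 2495 in STAT5 KO, against 773 and 527 in the multipotent gate. Most of each sum was Car2, at 2074 and 1600 CPM in erythroid-gated cells, against 718 and 457. Slc4a1 had no UMI in the erythroid gate of either library, and Alas2 none in that of control. Ptprc stood at 58.0 and 52.1 CPM in the erythroid gate, against 154 and 163 in the multipotent gate.

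By point values the cap was further up than the core in these cells, most narrowly for ATPases over alpha genes in STAT5 KO. Non-ATPase genes summed to log2 ratios of 0.67 (0.61 to 0.73) in control and 0.47 (0.42 to 0.52) in STAT5 KO, ATPases to 0.59 and 0.42, beta genes to 0.44 and 0.33 and alpha genes to 0.41 and 0.37. Psmd7 stood at 181 CPM in multipotent and 354 in erythroid control cells (0.97), and at 210 and 362 CPM in STAT5 KO (0.79). Psmd3, a scaffold of the lid, stood at 85.2 and 155 CPM in control (0.87) and at 90.6 and 162 CPM in STAT5 KO (0.83). Both were among the 3 highest members of each library. The chaperone Psmd5, at 50.2 and 91.5 CPM in control (0.87) and 46.3 and 82.5 in STAT5 KO (0.83), was the other one. Psmb3 followed at 0.81 and 0.60 and the ATPase Psmc2 at 0.80 and 0.78.

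Psmb10 stood at 126 CPM in multipotent and 109 in erythroid control cells (-0.20, -0.47 to 0.05), and at 147 and 129 CPM in STAT5 KO (-0.18, -0.36 to -0.01). The immunoproteasome genes outside the rule were lower, Psmb8 at -0.67 and -0.81 and Psmb9 at -0.55 and -0.52. The constitutive Psmb5 (0.38 and 0.36) and Psmb7 (0.57 and 0.43) were higher, and Psmb6 stood at 0.33 (0.16 to 0.50) and 0.09 (-0.04 to 0.22). The intervals of Psmb10 in control and Psmb6 in STAT5 KO thus included 0. Of the partners, Txnl1, a thioredoxin-like protein bound to the cap, stood at 1.30 and 1.14, the assembly factor Psmg2 at 1.00 and 0.86, the inhibitor Psmf1 at 0.93 and 0.93 and the activator subunit Psme3 at 0.79 and 0.61, but the activator subunit Psme1 at -0.60 and -0.32. Nfe2l2 stood at 1.11 and 0.79 and Nfe2l1 at -0.64 and -0.85. The chaperonin was higher as well, with 7 of 7 genes at least 1.2-fold higher in each library (24.9% of all genes in control and 22.9% in STAT5 KO; sums 0.61 and 0.43), and the COP9 signalosome summed to 0.26 and 0.16.

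Myeloid-gated cells had 34 of 37 members above 0 in both libraries, but by small amounts. At least 1.2-fold higher were 7 of 37 members in control, against 10.6% of all genes, and 9 of 37 in STAT5 KO, against 9.27%, and Psma7, Psmb3, Psmc5 and Psmd14 were in both lists. Psmb3 stood at 197 CPM in multipotent and 258 in myeloid control cells (0.39), and at 234 and 299 CPM in STAT5 KO (0.35). With TMM factors, which moved the median of all genes from -0.11 to 0.00 in control and to 0.02 in STAT5 KO, the counts were 22 and 28 members, and the shares of all genes also rose, to 19.9% and 19.7%. Chaperonin genes summed to 0.20 and 0.26. The myeloid count therefore turned on the scaling.

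Stem triad cells had 32 of 37 members below 0 in both libraries. At least 1.2-fold lower were 2 of 37 members in control, against 6.68% of all genes, and 6 of 37 in STAT5 KO, against 13.7%, so the members' shares were near the background. Psmc3ip was lowest, at -0.29 in control and -0.75 in STAT5 KO, followed in control by Psmc2 (-0.27) and Psmd13 (-0.25) and in STAT5 KO by Psmc5 (-0.32) and Psmc4 (-0.30). Psma8 alone was above 0 in both libraries. It stood at 5.20 CPM in multipotent and 7.95 in stem triad control cells (0.61), and at 8.63 and 13.2 CPM in STAT5 KO (0.61). Lymphoid cells had less of it than multipotent cells, at 3.18 CPM in control (-0.71) and 5.66 in STAT5 KO (-0.61). These levels rest on 41 and 36 UMIs in the stem triad gate. Chaperonin genes summed to -0.16 and -0.18 in stem triad cells.

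**Figure D3:**
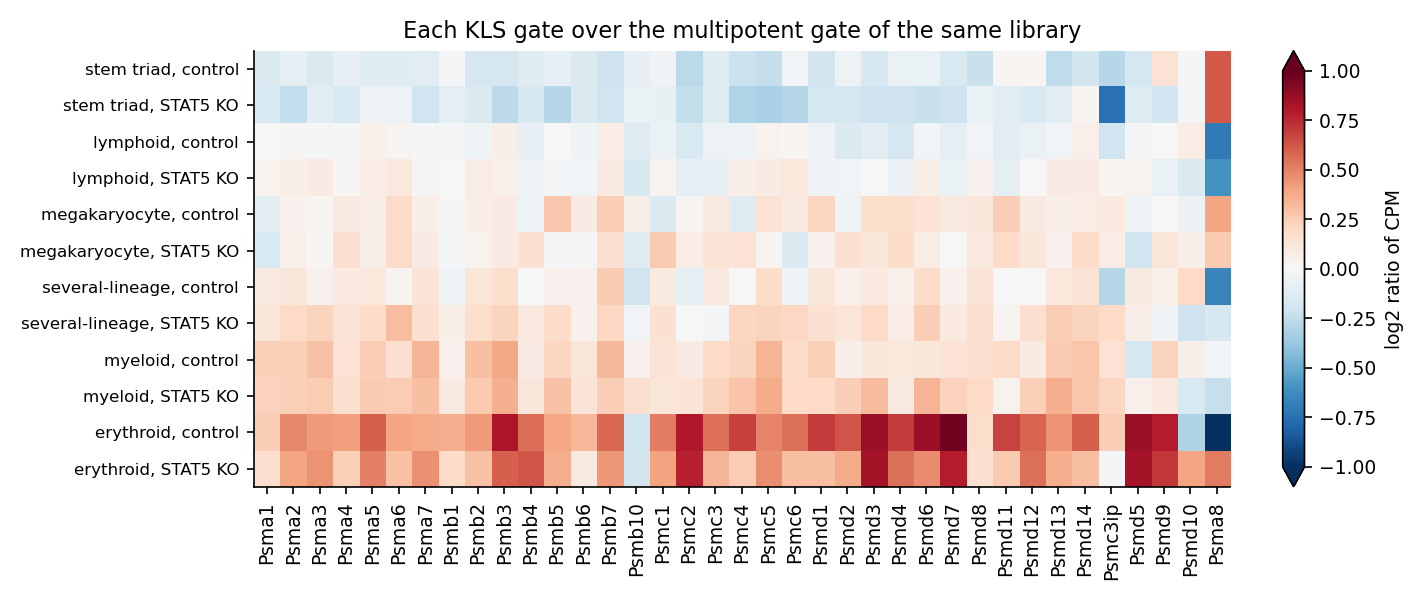
Log2 ratio of CPM of each gate to the multipotent gate of the same library (rows) for 37 genes (columns), with red higher and blue lower. The erythroid rows are red for most genes, but Psmb10 is below 0 in both. Psma8 is blue in the control erythroid row, at 1.63 CPM (2 UMIs) against 5.20 in the multipotent gate. It is red in both stem triad rows at 0.61.

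Across the cell cycle, the summed level was highest in the middle tier. It stood at 4743 CPM in the low, 5848 in the middle and 5453 in the high tier of control cells (1405, 803 and 877 cells), and at 5005, 6382 and 5926 CPM in STAT5 KO (1866, 2467 and 2393 cells). The log2 ratio of the middle to the low tier was 0.30 (0.29 to 0.32) in control and 0.35 (0.34 to 0.36) in STAT5 KO, and that of the high to the low tier 0.20 (0.19 to 0.22) and 0.24 (0.23 to 0.26). By scanpy phase calls, 625 of 803 control and 1581 of 2467 STAT5 KO cells of the middle tier were in S phase, and 776 of 877 and 2115 of 2393 of the high tier in G2/M. The low tier was the lowest tier in all 7 gates of both libraries, and the middle tier the highest in 7 gates of STAT5 KO and 6 of control; the exception was the megakaryocyte gate, at 5807 CPM in the middle and 5845 in the high tier.

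Depth moved with cycling. Median UMIs per cell were 9122, 18052 and 20459 in the low, middle and high tier of control, and 6418, 10519 and 13174 in STAT5 KO. The summed level stood at 4334 CPM in control cells of 4000 to 8000 UMIs and 5526 in those of 16000 to 32000, and at 5205 and 6438 CPM in STAT5 KO. The 289 STAT5 KO cells under 4000 UMIs went the other way, at 5394 CPM (5248 to 5542). Among cells of 8000 to 16000 UMIs the log2 ratio of the high to the low tier was 0.04 in control and 0.08 in STAT5 KO. Thinning each cell to 4000 UMIs before the tiers were set gave 0.22 in STAT5 KO.

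**Figure D4:**
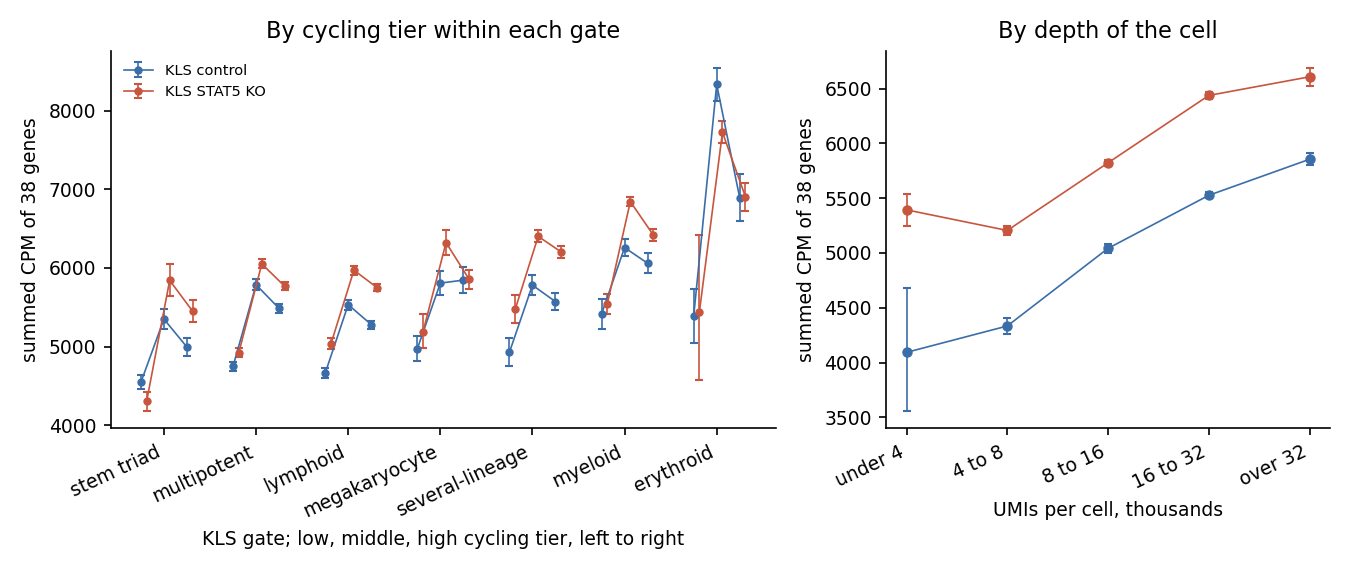
Left, summed CPM of the 38 genes by KLS gate and cycling tier (low, middle, high from left to right), and right, by UMIs per cell, for control (blue) and STAT5 KO (red) cells. Bars are 95% counting intervals. The low tier is the lowest in all 7 gates, and the level is also higher in deeper cells, 4334 against 5526 CPM in control.

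Single members followed the middle tier to different degrees. At least 1.2-fold higher than in the low tier were 24 of 37 members in control, against 21.0% of all genes, and 29 of 37 in STAT5 KO, against 20.9%; the 24 were in both. In the high tier these counts were 13 of 37 (18.3% of all genes) and 19 of 37 (18.5%). With TMM factors the high-tier counts were 25 and 31, against 26.0% and 28.4% of all genes. At 1.5-fold they were 2 and 1, against 7.58% and 7.12%, and in the middle tier 2 and 1, against 8.69% and 8.45%, so that at this fold the members' share was below that of all genes. The median of all genes moved with those factors from -0.06 to 0.04 and 0.07 in the high tier, and from -0.10 to 0.03 and 0.07 in the middle tier.

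Psmc3ip, the recombination factor, stood apart, at 13.0 CPM in the low and 43.8 in the middle tier of control, and at 15.2 and 43.1 CPM in STAT5 KO, log2 ratios of 1.75 and 1.5. In the high tier its ratios were 1.07 and 0.98. Of the particle's own genes, Psmd13 of the lid stood at 0.64 and 0.56 in the middle and 0.60 and 0.50 in the high tier, Psmd14 at 0.45 and 0.57 and then 0.49 and 0.46, and Psmc1 at 0.54 and 0.54 in the high tier. These 3 genes of the cap had the highest ratios of the mature particle's genes in the high tier of both libraries. Psmb1 (-0.00 and 0.06 in the middle tier) and the chaperone Psmd10 (-0.06 and -0.19) were at the low end, and Psmb10 stood at 0.09 and 0.14 in the middle and -0.17 and -0.09 in the high tier.

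By group, ATPases summed to 0.38 and 0.43 in the middle tier and 0.35 and 0.39 in the high tier, non-ATPase genes to 0.33 and 0.40 and then 0.23 and 0.27, alpha genes to 0.31 and 0.35 and then 0.15 and 0.19, and beta genes to 0.23 and 0.28 and then 0.16 and 0.21. The ATPase ring thus had the highest sum of the 4 groups in both tiers and both libraries. The chaperonin gave 0.31 and 0.36 in the middle and 0.20 and 0.24 in the high tier, close to the proteasome genes, and the COP9 signalosome 0.22 and 0.18 and then 0.17 and 0.13. Nfe2l2 was lower in the high tier, at -0.35 and -0.41.

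Stromal cells had less proteasome RNA as a share of all UMIs than KLS cells. Summed, they stood at 2986 CPM in control (2901 to 3073) and 2535 in STAT5 KO (2441 to 2632), which is 0.556 and 0.427 of the KLS level of the same genotype (log2 ratios -0.85, -0.89 to -0.81, and -1.23, -1.28 to -1.18). At least 1.2-fold lower were 35 of 37 members in control, against 52.0% of all genes, and 37 of 37 in STAT5 KO, against 54.4%. The members' medians were -0.81 and -1.21, those of all genes -0.33 and -0.42, and TMM factors moved the latter to -0.44 and -0.53. KLS control and STAT5 KO kept 51139373 and 76389354 UMIs, the MSC libraries 1752793 and 1199251. A gene could thus pass the UMI minimum on KLS cells alone at a far lower level than on stromal cells alone. The shares and medians of all genes rest on that set. Psma8 counted as lower in STAT5 KO on 4 stromal UMIs (-1.06, -2.94 to 0.31). Age, dissociation and depth differ between the sorts together with the cell type and cannot be told apart.

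In this contrast the alpha ring was lowest, with sums of -1.13 in control and -1.40 in STAT5 KO, against -0.79 and -1.27 for beta genes, -0.54 and -1.04 for ATPases and -0.69 and -1.04 for non-ATPase genes. Psmd4 (116 CPM in KLS and 103 in stromal control cells, -0.17) and Psmc6 (123 and 105 CPM, -0.23) were nearest to 0 in control. Psmb10 was among the lowest, at 120 and 36.9 CPM in control (-1.71) and 144 and 25.8 in STAT5 KO (-2.47), as was Psmd5 in control (-1.72). Psmc3ip stood at 5.72 CPM in stromal control (9 UMIs, -2.31) and 2.77 in stromal STAT5 KO cells (3 UMIs, -3.56, -5.84 to -2.01), and Psmd10 at 10.2 CPM (16 UMIs) and 1.84 CPM (2 UMIs, -4.10, -7.15 to -2.25).

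Not all partners were lower. Nfe2l1 stood at 39.9 CPM in KLS and 161 in stromal control cells (2.02) and at 50.5 and 128 CPM in STAT5 KO (1.34), and the activator Psme4 at 0.69 and 0.53. The small cap protein Sem1 was level, at -0.05 and -0.06. Psmb8 (-2.83 and -3.59) and Psmb9 (-2.73 and -3.54) were far lower, the chaperonin summed to -1.83 and -1.93, below the proteasome genes, and the COP9 signalosome to -0.57 and -0.64. Genes of mitochondria, ribosomal proteins and hemoglobin took 318676 CPM of KLS control and 105034 CPM of stromal control RNA. Left out of the total, they moved the ratio of the proteasome genes to -1.24 in control and -1.57 in STAT5 KO.

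Between stromal libraries, the summed level was lower in STAT5 KO, with a log2 ratio of -0.24 (-0.30 to -0.17). Of 33 members tested, 18 were at least 1.2-fold lower, against 33.6% of all genes, and 1 was higher, against 16.5%. The median of the members was -0.28 and that of all genes -0.10. The interval lay below 0 for 9 members, above 0 for 1 and included 0 for 23, so most single members did not differ beyond counting error. Psmc3 stood at 109 CPM in control and 68.2 in STAT5 KO (-0.67, -1.08 to -0.27), Psmc1 at 68.6 and 44.3 CPM (-0.63, -1.15 to -0.13) and Psmd9 at 30.5 and 19.4 CPM (-0.66, -1.47 to 0.11). Psmb5 stood at 117 and 76.5 CPM (-0.61), Psmb7 at 77.5 and 50.7 CPM (-0.61) and Psmb6 at 152 and 109 CPM (-0.48), all 3 catalytic genes lower, while Psmb1 stood at 129 and 169 CPM (0.39, 0.09 to 0.68), Psma1 at 71.8 and 78.4 (0.13) and Psmd11 at 87.7 and 95 (0.11).

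The makeup of the stromal gate differed too. Reticular-gated cells stood at 2774 CPM in control (125 cells) and 2858 in STAT5 KO (63 cells), a log2 ratio of 0.04 (-0.10 to 0.19). Fibroblast-gated cells stood at 3117 and 2801 CPM (286 and 170 cells; -0.15, -0.24 to -0.07), and chondrocyte-gated cells at 2378 and 1855 CPM (14 and 32 cells; -0.36, -0.59 to -0.12). The chondrocyte-gated cells, 14 of 428 in control and 32 of 267 in STAT5 KO, had a median of 3419 and 9991.5 UMIs. Without them the log2 ratio of the stromal cells was -0.10, and weighted to the control makeup it was -0.11. Hemoglobin RNA summed to 2589 CPM in control and 135 in STAT5 KO stromal cells, and 10 erythroid markers to 12.7 and 11.1 CPM, with Klf1, Ermap, Rhag and Hemgn at 0 in both; their part in the result was not tested.

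The catalytic positions of the beta ring can be filled by a constitutive or an inducible subunit, Psmb5 or Psmb8, Psmb6 or Psmb9, and Psmb7 or Psmb10. The share of UMIs from the inducible gene of each pair is used to compare pools of cells, not the genes of a pair with each other. Psmb8 gave 69.7% (69.2 to 70.2) of its pair in KLS control and 69.2% (68.8 to 69.6) in KLS STAT5 KO, Psmb9 49.9% (49.2 to 50.5) and 49.4% (48.9 to 49.9), and Psmb10 53.1% (52.2 to 54.0) and 52.3% (51.6 to 52.9). Genotypes were thus within 1 percentage point in KLS cells. In erythroid-gated cells the shares were 52.5% (48.5 to 56.5) and 48.4% (45.6 to 51.2) for Psmb8, 34.7% (30.5 to 39.2) and 38.3% (35.2 to 41.6) for Psmb9 and 42.4% (36.9 to 48.1) and 44.2% (40.5 to 48.0) for Psmb10, below every other KLS gate in each library. Intervals are exact Clopper-Pearson ones.

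Stromal cells had 34.5% (29.0 to 40.4) and 36.2% (27.9 to 45.0) from Psmb8 and 16.4% (12.3 to 21.2) and 15.1% (9.60 to 22.2) from Psmb9. Within them the subgates differed. Reticular-gated cells had 65.4% (55.4 to 74.5) and 67.4% (52.0 to 80.5) from Psmb8, whereas fibroblast-gated cells had 17.1% (11.7 to 23.6) and 27.6% (16.7 to 40.9), and chondrocyte-gated cells of STAT5 KO had none in 26 UMIs, which allows a share of up to 13.2%. Psmb10 behaved alike, at 59.2% (44.2 to 73.0) and 54.8% (36.0 to 72.7) in reticular and 22.8% (15.7 to 31.2) and 24.3% (11.8 to 41.2) in fibroblast-gated cells. Over the cell cycle the Psmb10 share was 58.2% (56.5 to 60.0) in the low and 48.9% (47.4 to 50.4) in the high tier of KLS control, where Psmb7 stood at 88.3 and 114 CPM and Psmb10 at 123 and 109 CPM. The Psmb9 share was 48.3% (46.9 to 49.7) and 50.8% (49.8 to 51.9) in the same tiers and the Psmb8 share 70.4% (69.4 to 71.3) and 68.8% (68.0 to 69.6), so that the 3 pairs did not move alike. The outer ring has a similar pair, and Psma8 gave 1.33% (1.17 to 1.51) of Psma8 and Psma7 UMIs in KLS control and 1.98% (1.83 to 2.15) in KLS STAT5 KO, with 2.51% (1.81 to 3.39) and 4.07% (2.87 to 5.59) in the stem triad gate.

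**Figure D5:**
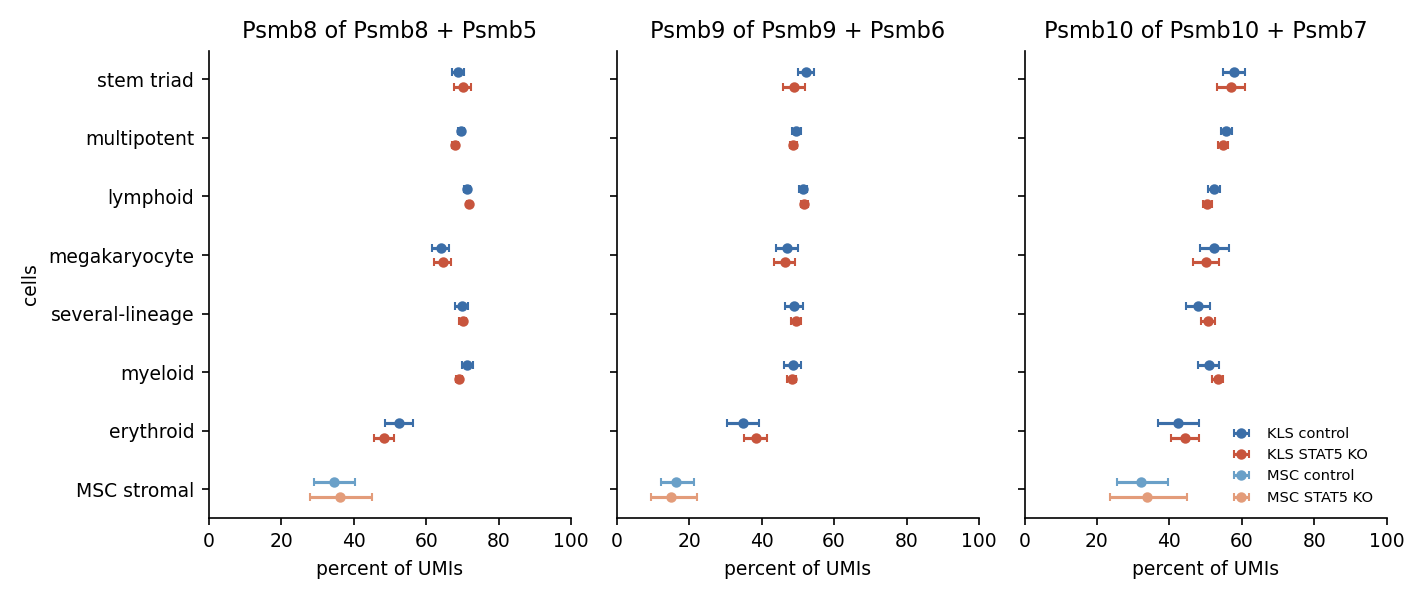
Percent of UMIs from the inducible gene of each catalytic pair (Psmb8 of Psmb8 and Psmb5, Psmb9 of Psmb9 and Psmb6, Psmb10 of Psmb10 and Psmb7) in KLS gates and stromal cells, with control and STAT5 KO points and exact 95% intervals. Erythroid-gated cells lie at 52.5% and 48.4% for Psmb8, left of the other KLS gates, and stromal cells at 34.5% and 36.2%.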

How the data were processed

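The authors deposited 1 matrix of raw UMI counts per library, whole numbers for each gene and cell barcode with no normalization, per the file headers. The submitters' processing notes name Cell Ranger, GRCm38 and mm10, and the matrix headers give software version 3.1.0. The strand rule and cell calling are not given in the sources used here. KLS libraries held 55138419 (control) and 82466835 (STAT5 KO) UMIs, and MSC libraries 1874023 and 1270763.

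Barcodes below 200 genes or above 10% mitochondrial UMIs were left out. So were the highest Scrublet scores (0.8% of a library's barcodes per 1000 barcodes, 451 and 112 barcodes in KLS STAT5 KO and control, 1 and 4 in MSC, while the automatic threshold marked 1, 0, 1 and 0) and barcodes with more UMIs in another library. No correction for free RNA was made. KLS gates were erythroid (Klf1 and Gata1 detected), megakaryocyte (Pf4, at least 2 UMIs), lymphoid (Dntt, at least 2), myeloid (Mpo, Elane, Prtn3 and Ctsg, at least 20 per 10000 UMIs), several-lineage, stem triad and multipotent (the rest). Cycling tiers, 3 of like size, used 43 S and 53 G2/M genes. Stromal cells had more stromal than erythroid and leukocyte marker UMIs, and subgates took the marker list of highest share.

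Counts summed over cells were divided by the pool's UMIs of all genes to give CPM. Sums have exact Poisson, ratios exact conditional binomial and shares exact Clopper-Pearson 95% intervals. Genes were named if they were among the 3 highest or lowest members of a comparison, catalytic, tissue-restricted or outside the particle, or on a pathway list. Other members, such as Psma2, Psma3, Psma6, Psma7, Psmb3, Psmc2, Psmd2, Psmd4, Psmd7 and Psmd14, were chosen after their values were seen. Of the list symbols, 2 were not found under those names (Ecpas and Cct6a). A further list of partner genes is not reported here. Members and lists were chosen with earlier results of these data known. The ratios and intervals were also run on simulated Poisson counts of genes changed by known folds. Those hold counting error alone, so the run says nothing of differences between cells, mice or libraries. Python 3.11.15, numpy 2.4.6, scipy 1.17.1, pandas 2.3.3, scanpy 1.11.5, matplotlib 3.10.9, R 4.3.3 and edgeR 4.0.16 (TMM factors only) were used. Alternatives covered the cell filter, doublets, shared barcodes, scaling, pseudocount, UMI minimum, fold, gates, thinning, depth and cycling.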

Additional observations from a re-analysis of the deposited data

Results flagged for a closer look

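The summed proteasome level was higher in STAT5 KO than in control in KLS cells (log2 ratio 0.15) and lower in stromal cells (log2 ratio -0.24), with 1 library in each group. Stat5a and Stat5b were low only in the KLS library of that label, at 6.74 and 4.49 CPM. In stromal STAT5 KO cells they stood at 60.9 and 49.8 CPM, against 44.5 and 55.3 in stromal control. The stromal log2 ratio minus the KLS one was -0.38. Its parts moved with the cells counted: the stromal ratio was -0.10 without chondrocyte-gated cells, -0.11 weighted to the control subgates and 0.04 (-0.10 to 0.19) in reticular-gated cells, and the KLS ratio was 0.086 weighted to the control makeup. The result stands here because the libraries of the 2 sorts moved in opposite directions, and the difference itself was not tested.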

How the results depend on the processing

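Of 203 alternative values of 34 results, 114 stayed within counting error or within 1.5 times a count, 85 moved further and 4 changed sign. Values below are log2 ratios of the summed CPM, or counts of members. The cause of each change was not tested. The depth bin, the cycling weights, the separate S and G2/M contrasts and the stromal gate without chondrocyte-gated cells were chosen after seeing the data. No paired analysis was possible because each group has 1 library, and none could be left out.

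Between genotypes, the KLS ratio (0.15) was 0.12 with stricter cells (at least 1000 genes, at most 5% mitochondrial UMIs), 0.11 without mitochondrial, ribosomal protein and hemoglobin genes, 0.17 with TMM factors, 0.086 weighted to the control makeup and 0.21 in cells of 8000 to 16000 UMIs. The stromal ratio (-0.24) was -0.14 with TMM factors, -0.12 as a mean over cells, -0.16 over all kept MSC cells, -0.11 weighted to the control subgates and -0.10 without chondrocyte-gated cells. The MSC over KLS ratio was -1.24 in control and -1.57 in STAT5 KO without those gene classes, -0.97 and -1.35 with TMM factors, and -1.08 in STAT5 KO as a mean over cells.

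For gates over the multipotent gate, 4 alternative values changed sign. Weighted for cycling, the lymphoid gate of STAT5 KO did (-0.00099, from 0.014). In cells of 8000 to 16000 UMIs the several-lineage gate of control did (-0.086, from 0.068). So did the lymphoid gate (-0.048) and the erythroid gate (-0.015) of STAT5 KO. That erythroid ratio was 0.39 over all cells, the highest gate ratio of its library. At that depth control also gave -0.081 (lymphoid), 0.0094 (myeloid) and 0.17 (erythroid), and STAT5 KO -0.19 (stem triad), 0.11 (myeloid), 0.016 (megakaryocyte) and 0.023 (several-lineage). Weighted for cycling, control gave -0.048 (lymphoid), 0.15 (myeloid), 0.34 (erythroid) and 0.026 (several-lineage), and STAT5 KO -0.095 (stem triad), 0.17 (myeloid), 0.27 (erythroid) and 0.11 (several-lineage). In the low tier alone, control gave -0.063 (stem triad) and 0.18 (erythroid), and STAT5 KO -0.19 (stem triad), 0.033 (lymphoid), 0.17 (myeloid) and 0.15 (erythroid). Thinned to 4000 UMIs before gating, which left out 24 control and 289 STAT5 KO cells, control gave -0.25 (stem triad), 0.15 (myeloid) and 0.13 (megakaryocyte), and STAT5 KO -0.34 (stem triad), 0.19 (myeloid), 0.14 (megakaryocyte), 0.37 (erythroid) and 0.079 (several-lineage). With 1 UMI of Pf4 or Dntt, control gave 0.023 (megakaryocyte), 0.46 (erythroid) and 0.11 (several-lineage), and STAT5 KO -0.19 (stem triad), 0.029 (megakaryocyte) and 0.42 (erythroid). Without mitochondrial, ribosomal protein and hemoglobin genes, STAT5 KO gave -0.13 (stem triad) and 0.038 (megakaryocyte).

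The high over low tier was 0.043 in control and 0.076 in STAT5 KO at 8000 to 16000 UMIs, 0.10 and 0.14 without those gene classes, 0.28 and 0.32 for S or G2/M over G1, 0.31 and 0.33 for S over G1, 0.26 and 0.32 for G2/M over G1, and in STAT5 KO 0.22 after thinning and 0.23 in the multipotent gate.

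At 1.5-fold, 1 member was higher between KLS genotypes, against 1.09% of all genes. Between stromal libraries 0 were higher (5.83% of all genes) and 5 lower (10.6%). In control and STAT5 KO, 0 and 0 were higher in the myeloid gate (2.1% and 1.77% of all genes). In the erythroid gate 14 and 7 were higher (11.6% and 9.36%), and in the high tier 2 and 1 (7.58% and 7.12%). In the middle tier 2 and 1 were higher (8.69% and 8.45%). In the stem triad gate 0 and 1 were lower (0.616% and 2.18%). With TMM factors, 22 and 28 were higher in the myeloid gate (19.9% and 19.7% of all genes). In the high tier 25 and 31 were higher with them (26.0% and 28.4%), and 7 lower in the stem triad gate of control (11.4%). That last count was 0 with a pseudocount of 10 CPM (2.99% of all genes) and with shared barcodes kept (7.96%). With at least 20 UMIs, 2 members were higher in stromal STAT5 KO, against 19.7% of all genes.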
